A study of Mus musculus with 10 samples.

Results

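The glucocorticoid receptor gene Nr3c1 and 7 genes known as its transcriptional targets, Fkbp5, Tsc22d3, Zbtb16, Ddit4, Klf15, Mt1 and Mt2, were examined in mouse kidney. They were taken by gene name from a deposited table of 55952 genes, and all 8 were present and averaged 0.5 FPKM or more over the libraries, the minimum for testing. FPKM counts the sequenced fragments of each gene relative to the length of its transcripts and to the library's total. Kidney RNA came from C57BL/6 mice, an inbred strain, kept at an altitude of 400 m (control, 5 libraries) or 4200 m (hypoxia, 5 libraries), for 30 days in both groups. No genetic change, drug, sex or age was given for either group, and altitude cannot be told apart from any other feature of the site where a group was kept. The labels do not say whether different samples are different mice, so the p-values refer to the spread between samples, which may be technical.

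The glucocorticoid receptor is a nuclear receptor that is held in the cytoplasm by a complex of HSP90 and its partner proteins until it binds corticosterone, the main glucocorticoid of mice. The bound receptor enters the nucleus and attaches to glucocorticoid response elements, imperfect inverted repeats of a short half-site. Several of its target genes feed back on the pathway or carry out its metabolic and anti-inflammatory effects. In the kidney, glucocorticoids act on gluconeogenesis, sodium transport and the daily rhythm of gene expression. Target genes also answer to other signals, among them low oxygen for Ddit4 and metals for the metallothioneins.

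Whole reads could be recovered from the FPKM values, and the libraries held 16561672 to 17845464 reads assigned to genes. The 10 proximal tubule markers summed to 26290 to 32280 FPKM in controls and 11660 to 25800 FPKM in hypoxia, without overlap. Most of each sum was Kap, whose groups overlapped, at 22480 to 28470 FPKM in controls and 8239 to 22620 FPKM in hypoxia. With all libraries 2 of the 10 markers were lower (limma), beside 11.5% of all tested genes that passed, and the others did not pass. These 2 were Kap (log2 fold change -0.92, adjusted p = 0.0498, not past the threshold without hypoxia 4 and 5) and Slc22a6 (-1.18, adjusted p = 0.00429). On leaving out hypoxia 4 and 5, Slc5a2 also passed as lower (-0.62, limma adjusted p = 0.0401) and Aqp1 as higher (0.49, limma adjusted p = 0.0347). The part of these differences in the results below was not tested. The 10 retina markers summed to between 0.25 and 0.75 FPKM, in libraries that are labelled kidney but whose extraction text names retina. Controls differed among themselves in the sum of 5 brown fat markers, at 13.9 to 71.0 FPKM, against 7.44 to 19.5 FPKM in hypoxia. Hypoxia 4 and hypoxia 5 stood apart from the other libraries in the marker sums that follow. In hypoxia 4 the 11 adrenal cortex markers summed to 1195 FPKM, against 26.1 to 36.0 FPKM in the other 9 libraries, and Cyp21a1 and Star, of corticosterone synthesis, reached 245.6 and 217.9 FPKM. The 5 adrenal medulla markers were at 119.4 FPKM in hypoxia 4 and at most at 0.266 FPKM elsewhere, and the 8 fat markers at 859.4 FPKM against 97.0 to 243.8 FPKM elsewhere, with Adipoq at 39.7 FPKM. In hypoxia 5 the 8 B cell markers summed to 489.1 FPKM, against 1.37 to 2.02 FPKM in controls and 5.39 to 16 FPKM in hypoxia 1 to 4, with Cd79a at 105.5 FPKM. The 7 T cell markers summed to 86.8 FPKM there against 1.93 to 5.90 FPKM elsewhere, and Ctrb1, a digestive enzyme of the pancreas, was at 15.4 FPKM against at most 0.068 FPKM. The 5 red cell markers were at 6560 FPKM in hypoxia 5 and at most at 665.5 FPKM elsewhere. The tests below were therefore also run with controls 1 to 5 against hypoxia 1 to 3.

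Of the 8 genes, 2 were higher in hypoxia, Tsc22d3 and Mt1, and none was lower (limma on log2(FPKM + 0.5), Benjamini-Hochberg adjusted over all tested genes, threshold 0.05). Among all 15264 tested genes 11.5% passed the same test and 3.66% passed it as higher in hypoxia. Without hypoxia 4 and 5, 12.3% of 14724 genes passed, and Tsc22d3 and Mt1 were again the 2 genes of the 8 that did. The 5 control and 5 hypoxia values did not overlap for these same 2 genes, against 14.2% of all tested genes. The median log2 fold change of the 8 genes was 0.12, beside 0.012 for all tested genes. Of the 1748 genes that passed, 559 were higher and 1189 lower, and the split was 750 to 835 after upper quartile scaling and 842 to 752 after scaling to a sum without the 50 most abundant genes. The number that passed was 824 to 1053 on leaving out control 1, 2, 3 or 5 or hypoxia 4, and 2724 on leaving out hypoxia 5. The receptor and the other 5 targets did not pass the test under any of the alternatives tried.

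**Figure D1:**
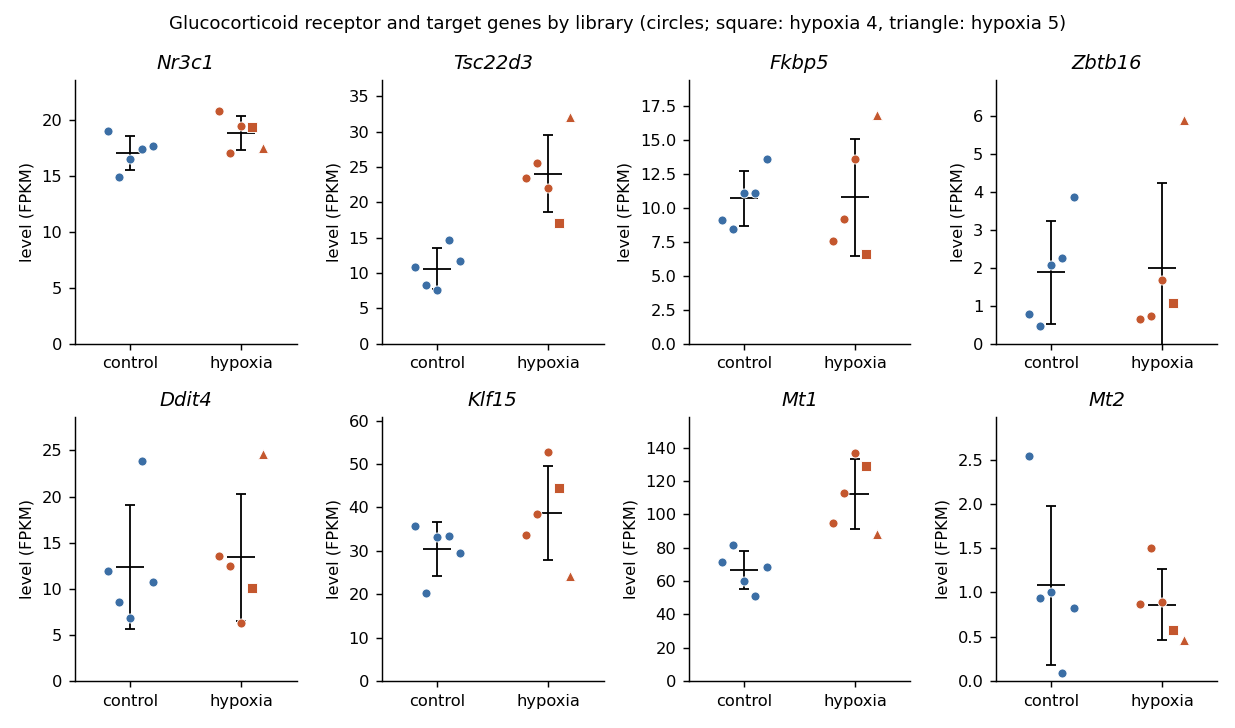
Level of each of the 8 genes in FPKM (linear axis from 0) in the 5 control and 5 hypoxia libraries, with the group mean and SD as a horizontal mark and bar (square, hypoxia 4; triangle, hypoxia 5). The lower bar of Zbtb16 in hypoxia runs past 0. All 5 hypoxia values lie above all 5 control values for Tsc22d3 and Mt1, and the groups overlap for the other 6 genes.

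The receptor itself did not differ beyond the spread between libraries. Nr3c1 (ENSMUSG00000024431, protein coding, GRCm38 chromosome 18, 39410545 to 39519421, minus strand) was at 19, 14.9, 16.5, 17.4 and 17.7 FPKM in controls 1 to 5. In hypoxia 1 to 5 it was at 20.8, 17.1, 19.5, 19.4 and 17.5 FPKM. The highest value was that of hypoxia 1, the lowest that of control 2, and the groups overlapped. The means were 17.1 ± 1.51 FPKM for controls and 18.9 ± 1.51 FPKM for hypoxia (SD, n = 5), a log2 fold change of 0.14 with a 95% interval from -0.04 to 0.31 (limma adjusted p = 0.276). An exact two-sided permutation test over the 252 regroupings of the libraries gave p = 0.103. Between 1882 and 2795 reads per library stood behind these levels, and the highest library was 1.39 times the lowest, the narrowest range of the 8 genes.

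Several genes of the complex that folds the receptor were lower in hypoxia. Of 12 chaperones and co-chaperones of the receptor, 5 were lower, none was higher and 7 did not pass (limma). The share that passed was 41.7%, beside 11.5% of all tested genes, and the median log2 fold change was -0.31, beside 0.012. Hsp90aa1, the stress-inducible HSP90, was at 154.9 ± 13.5 FPKM for controls and 78.4 ± 9.44 FPKM for hypoxia (SD, n = 5), a log2 fold change of -0.98 with SE 0.101 (limma adjusted p = 0.000579). Its control values ran from 142.8 to 177.3 FPKM and its hypoxia values from 70.2 to 91.9 FPKM. Fkbp4, the immunophilin that links the receptor complex to transport along microtubules, went from 108.1 ± 4.64 to 60.4 ± 8.82 FPKM (log2 fold change -0.85, limma adjusted p = 0.00148). Dnaja1, a co-chaperone of HSP70, had a log2 fold change of -1.21 (limma adjusted p = 0.000668). Stip1, the adaptor between HSP70 and HSP90, had one of -0.63 (limma adjusted p = 0.00324). The fifth gene, Hsp90ab1, the constitutive HSP90, was at 482.0 ± 34.2 and 322.9 ± 32.7 FPKM (limma adjusted p = 0.00695). For each of these 5 the groups did not overlap, beside 14.2% of all tested genes, and each passed on leaving out any 1 library. The 5 were picked by the test on these same values, so the lack of overlap is not a separate result. A sixth chaperone, Ppid, named after its value was seen, passed on leaving out hypoxia 4 and 5 (log2 fold change -0.30, limma adjusted p = 0.031).

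None of 10 coregulators of the receptor passed the test, with log2 fold changes between -0.24 and 0.24. The 2 most abundant, the corepressor Ncor1 and the chromatin remodeller Smarca4, had log2 fold changes of -0.23 and -0.24 (limma adjusted p = 0.0828 and 0.101). Leaving out hypoxia 4 and 5, Smarca4 passed as lower (log2 fold change -0.30, limma adjusted p = 0.0133).

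Hsd11b1 and H6pd, which set the local supply of active glucocorticoid, and the progesterone enzyme gene Akr1c18 were also lower in hypoxia. Hsd11b1, which regenerates active glucocorticoid inside cells, was at 32.3, 33.5, 36.3, 34.4 and 25.1 FPKM in controls 1 to 5 and at 23.6, 20.7, 18.0, 15.3 and 17.4 FPKM in hypoxia 1 to 5. Every hypoxia value was below every control value, with hypoxia 4 the lowest. The log2 fold change was -0.76 (SE 0.13, limma adjusted p = 0.00695) and it was -0.62 without hypoxia 4 and 5 (adjusted p = 0.0167). H6pd, which supplies the NADPH that this reaction uses, went from 64.7 ± 5.73 to 43.2 ± 8.58 FPKM (SD, n = 5; log2 fold change -0.60, limma adjusted p = 0.0212). The call of H6pd was lost on leaving out control 1, 3 or 5 (adjusted p up to 0.0586). Akr1c18, which inactivates progesterone, was at 23.3 ± 6.98 FPKM for controls and 3.12 ± 1.58 FPKM for hypoxia, a log2 fold change of -2.78 with SE 0.3 (limma adjusted p = 0.000762).

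Hsd11b2, which inactivates glucocorticoid in the distal nephron and so protects the mineralocorticoid receptor, was at 91.1 ± 7.69 FPKM for controls and 102.1 ± 25.3 FPKM for hypoxia (SD, n = 5). Its log2 fold change was 0.13 (limma adjusted p = 0.637), and its lowest value, 63.8 FPKM, was that of hypoxia 5. From hypoxia 1 to 3 the log2 fold change was 0.35 (limma adjusted p = 0.0531). The mineralocorticoid receptor gene Nr3c2 was at 2.93 ± 0.269 and 3.93 ± 0.602 FPKM and missed the threshold with all libraries (log2 fold change 0.36, limma adjusted p = 0.0566). Nr3c2 passed as higher on leaving out hypoxia 4 and 5 (log2 fold change 0.47, limma adjusted p = 0.0111). In all, 3 of the 6 tested genes of this group were lower and none higher, beside 11.5% of all tested genes that passed. Without hypoxia 4 and 5, where 12.3% of all tested genes passed, it was 3 lower and 2 higher. The second of these, named after its value was seen, was the steroid reductase Srd5a1 (log2 fold change 0.51, limma adjusted p = 0.0497, against 0.33 and 0.257 with all libraries). The seventh, Serpina6, the corticosteroid-binding globulin made mainly by liver, was listed at 0 in all controls and at most at 0.188 FPKM, and was not tested. Over chaperones, coregulators and this group together 8 of 28 genes passed, all lower, beside 11.5% of all tested genes that passed. When hypoxia 5 was left out 15 of the 28 passed, 13 of them lower. The number of all tested genes that passed rose in that fit too, from 1748 to 2724.

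**Figure D2:**
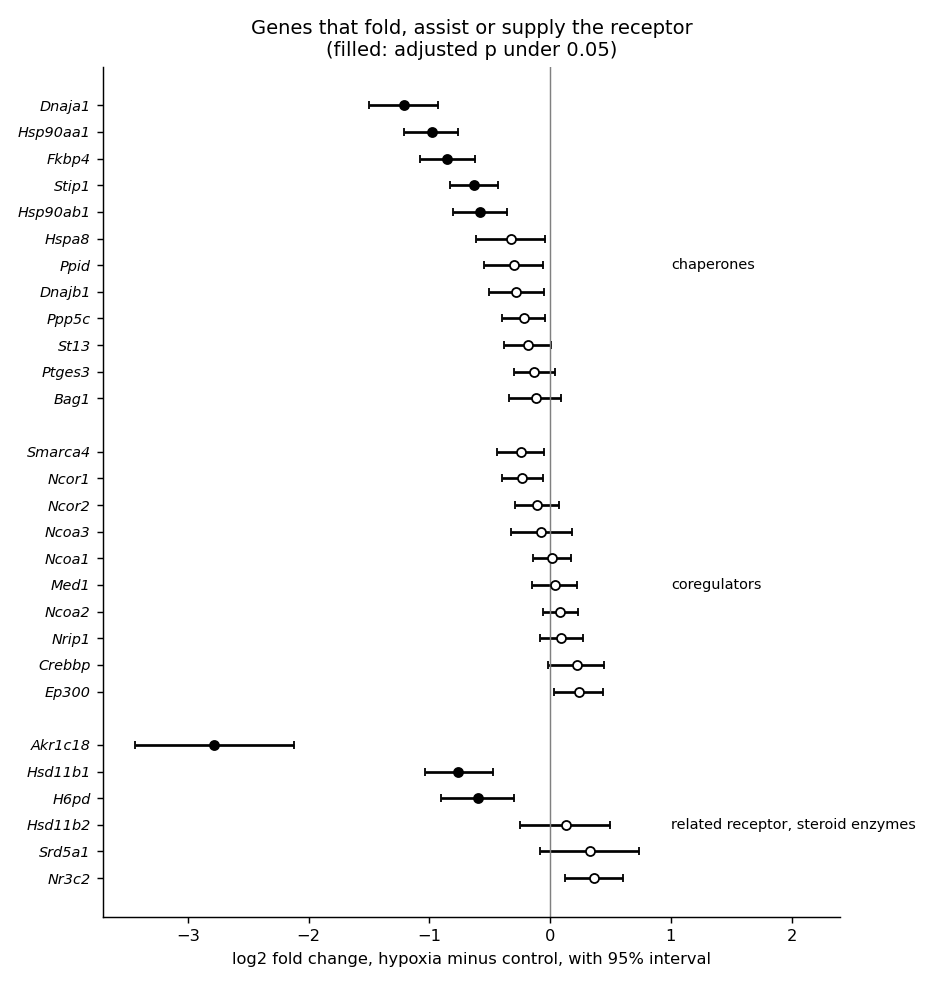
Log2 fold change (hypoxia minus control, from log2(FPKM + 0.5), all 10 libraries) with its 95% interval for the tested chaperones, coregulators, related receptor and steroid enzymes; filled circles passed the limma test at an adjusted p under 0.05. The 8 filled circles all lie left of 0, and Akr1c18 lies farthest from it at -2.78.

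Tsc22d3 had the largest log2 fold change of the 8 genes. It encodes GILZ, a leucine zipper protein that is induced by glucocorticoids and dampens inflammatory signalling. The gene (ENSMUSG00000031431, protein coding) lies on GRCm38 chromosome X, 140539528 to 140600659, minus strand, and has several promoters. RefSeq gave 3 windows of 250 bases before a start. The most upstream of them held the only copy of the half-site TGTTCT found in any window of these genes. It lay 185 to 180 bases before the RefSeq start. Of all RefSeq windows of this length, 16.1% held at least 1 copy. Annotated transcripts of Tsc22d3 start between positions 140542668 and 140600659, and the window with the match lies at the latter. The stretch of that window outside annotated exons, chrX:140600660-140600772 on the minus strand of GRCm38.p6, is printed 5′ to 3′ because it carries that match, which is in capitals.
Tsc22d3: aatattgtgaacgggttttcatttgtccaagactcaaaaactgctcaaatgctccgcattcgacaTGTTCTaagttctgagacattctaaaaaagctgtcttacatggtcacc

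Tsc22d3 was at 10.8, 8.32, 7.54, 14.7 and 11.7 FPKM in controls 1 to 5. It was at 23.4, 25.5, 22.0, 17.1 and 32.1 FPKM in hypoxia 1 to 5. Control 4 was the highest control, hypoxia 4 the lowest and hypoxia 5 the highest of the hypoxia libraries, and the groups did not overlap. The means were 10.6 ± 2.87 and 24.0 ± 5.48 FPKM (SD, n = 5), a ratio of 2.26, and the log2 fold change was 1.15 (SE 0.196, 95% interval 0.71 to 1.58, limma adjusted p = 0.00689). The exact two-sided permutation test gave p = 0.00794, the smallest that 5 against 5 libraries can give. Hypoxia 1 to 3 alone had a mean of 23.6 ± 1.74 FPKM (SD, n = 3), and the log2 fold change without hypoxia 4 and 5 was again 1.15 (limma adjusted p = 0.00783). The difference was thus as large without the library rich in adrenal markers and the one richest in lymphocyte markers. The sum of the B cell markers was also higher in hypoxia 1 to 3 than in controls, at 5.39 to 6.10 against 1.37 to 2.02 FPKM. Jchain, at 3.04 to 3.63 FPKM in hypoxia 1 to 3, made up most of that sum there. Only Jchain and Cd79b of the 8 were high enough to be tested without hypoxia 4 and 5. Jchain passed (log2 fold change 2.51, limma adjusted p = 0.000368) and Cd79b did not (0.48, limma adjusted p = 0.129). Of the 8 macrophage and granulocyte markers only S100a8 passed in the same comparison, as higher (2.34, limma adjusted p = 0.0395). It was at 1.56, 1.67 and 13.0 FPKM in hypoxia 1 to 3. Csf1r and C1qa had negative log2 fold changes there (-0.36 and -0.19), and the other tested ones positive. The sums of these 8 overlapped, at 47.1 to 65.2 FPKM in controls and 54.9 to 102.5 FPKM in hypoxia 1 to 3. The part of these markers in the level of Tsc22d3 was not tested. In bulk tissue, a different share of cells that express a gene and a different level per cell cannot be told apart.

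Set against the receptor in the same library, on the FPKM scale, Tsc22d3 was below Nr3c1 in all 5 controls and above it in 4 of 5 hypoxia libraries. The ratio of Tsc22d3 to Nr3c1 was 0.618 ± 0.147 in controls and 1.29 ± 0.373 in hypoxia (SD, n = 5), and the exception was hypoxia 4 at 0.878.

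Mt1 was the other gene of the 8 that was higher. Metallothioneins are small cysteine-rich proteins that bind zinc and copper and are induced by metals, glucocorticoids and stress. Mt1 (ENSMUSG00000031765, protein coding, plus strand, 94179082 to 94180327) and Mt2 (ENSMUSG00000031762, protein coding, plus strand, 94172664 to 94173568) are neighbours on GRCm38 chromosome 8. The metal response element core, TGCGCNC or TGCACNC on either strand, was found once in the RefSeq window of Mt1, 23 to 17 bases before the RefSeq start. It was found 3 times in the window of Mt2, from 223, 128 and 50 bases before its start. Of 32851 RefSeq windows of this length, 21.4% held at least 1 such core and 1.26% at least 3. Both windows are printed 5′ to 3′ to set the neighbours side by side, chr8:94178839-94179081 for Mt1 (243 bases, without 7 exon bases at its end) and chr8:94172368-94172617 for Mt2 (250 bases), plus strand of GRCm38.p6, with each core in capitals. Transcripts with later starts are annotated for both genes, and the bases between these windows and those starts were not searched.
Mt1: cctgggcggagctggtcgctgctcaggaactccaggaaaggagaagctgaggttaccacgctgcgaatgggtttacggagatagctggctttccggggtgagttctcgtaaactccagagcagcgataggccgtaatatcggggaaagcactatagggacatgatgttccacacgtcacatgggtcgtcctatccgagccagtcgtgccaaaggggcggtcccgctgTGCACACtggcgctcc
Mt2: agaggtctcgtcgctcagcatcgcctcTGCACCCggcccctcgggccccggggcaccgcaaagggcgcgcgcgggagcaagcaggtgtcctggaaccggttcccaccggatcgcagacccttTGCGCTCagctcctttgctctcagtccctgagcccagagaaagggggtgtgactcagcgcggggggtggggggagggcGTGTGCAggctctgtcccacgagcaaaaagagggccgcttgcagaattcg

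Mt1 was at 71.7, 81.8, 60, 51.3 and 68.7 FPKM in controls 1 to 5. It was at 94.6, 112.8, 137.2, 128.9 and 88.5 FPKM in hypoxia 1 to 5. Hypoxia 3 was the highest library and hypoxia 5 the lowest of its group, still above control 2, the highest control. The means were 66.7 ± 11.6 and 112.4 ± 21.1 FPKM (SD, n = 5), a ratio of 1.69, with a log2 fold change of 0.75 (SE 0.157, 95% interval 0.40 to 1.09, limma adjusted p = 0.0149). The exact two-sided permutation test gave p = 0.00794, again the smallest possible. The log2 fold change was 0.78 without hypoxia 4 and 5 (limma adjusted p = 0.018). On leaving out any 1 library the adjusted p stayed at or below 0.0437.

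Mt2 rested on few reads and did not pass the test. It was at 2.54, 0.932, 1.01, 0.0936 and 0.819 FPKM in controls 1 to 5 and at 0.873, 1.5, 0.893, 0.575 and 0.466 FPKM in hypoxia 1 to 5. Control 1 was the highest and control 4 the lowest of all libraries, so the hypoxia values fell inside the control range. These levels rest on 1 to 25 reads in controls and 5 to 16 reads in hypoxia, whereas Mt1 had 1162 to 2931 reads per library. The log2 fold change was -0.075 with a 95% interval from -0.90 to 0.75 (limma adjusted p = 0.91), and its sign turned in 5 of 20 alternatives, limma voom on reads and omission of hypoxia 4 and 5 among them. In the GRCm38 annotation 432 of the 588 exon bases of Mt2 (73.5%) are shared with Gm45774 on the opposite strand, and no other gene of the 8 shares exon bases with another gene. How the counting treated strand and shared bases is not given in the sources used here, so the part of this overlap in the low level of Mt2 was not tested.

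The remaining metallothioneins, Mt3 and Mt4, were too low to be tested, at means of at most 0.524 FPKM. Of the metal-sensing factor gene Mtf1 and 11 tested zinc transporter genes, none was higher and 1 was lower (limma). This is 8.33% of them, beside 11.5% of all tested genes that passed. The lower gene was the zinc importer Slc39a14, at 6.55 ± 0.421 FPKM for controls and 4.39 ± 0.821 FPKM for hypoxia (SD, n = 5; log2 fold change -0.54, limma adjusted p = 0.0149). On leaving out hypoxia 4 and 5, Slc39a14 was again lower and the zinc transporter gene Slc39a8, named after its value was seen, passed as higher. Its log2 fold change was then 0.58 (limma adjusted p = 0.0416), against 0.35 (0.215) with all libraries.

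Fkbp5 and Zbtb16, targets commonly used as readouts of receptor activity, did not pass the test. Fkbp5 encodes FKBP51, a co-chaperone that lowers the affinity of the receptor for hormone and closes a short feedback loop. The gene (ENSMUSG00000024222, chromosome 17, 28399094 to 28517527, minus strand) was at 9.11, 8.45, 11.1, 11.1 and 13.6 FPKM in controls 1 to 5. It was at 7.56, 9.16, 13.6, 6.61 and 16.8 FPKM in hypoxia 1 to 5. Hypoxia 4 was the lowest and hypoxia 5 the highest of all libraries, so the hypoxia group enclosed the controls. The means were 10.7 ± 2.0 and 10.8 ± 4.33 FPKM (SD, n = 5). The log2 fold change was -0.052 with a 95% interval from -0.58 to 0.47 (limma adjusted p = 0.902), and it was -0.093 without hypoxia 4 and 5. Its sign turned in 5 of 21 alternatives, 1 of the scalings among them.

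Zbtb16 encodes PLZF, a zinc finger transcription factor that is induced by glucocorticoids in many tissues. The gene (ENSMUSG00000066687, chromosome 9, 48654297 to 48836222, minus strand) was at 0.769, 0.461, 2.06, 2.26 and 3.86 FPKM in controls 1 to 5. It was at 0.648, 0.719, 1.67, 1.07 and 5.90 FPKM in hypoxia 1 to 5. Hypoxia 5 was the highest of all libraries and control 2 the lowest, and the highest was 12.8 times the lowest. The log2 fold change was -0.061 with a 95% interval from -1.23 to 1.11 (limma adjusted p = 0.949). Without hypoxia 4 and 5 it was -0.51 (limma adjusted p = 0.527), and its sign turned in 6 of 20 alternatives. At this spread a change of 1 on the log2 scale in either direction lies inside the interval.

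Fkbp5 and Zbtb16 were correlated over the 10 libraries by Pearson's r, and by rank not after adjustment. No correlation was computed within a group of 5. On log2(FPKM + 0.5), Pearson's r was 0.85 over 10 libraries (permutation p = 0.00182, adjusted p = 0.0273 over the 15 pairs of the 6 genes whose groups overlap). Spearman's rho was 0.77 (permutation p = 0.0127), which did not pass after adjustment over the 15 pairs (adjusted p = 0.19). Without hypoxia 4 and 5, the 2 libraries farthest from the median of Fkbp5, r was 0.87, and without hypoxia 5 alone it was 0.76. None of the other 14 pairs passed, the nearest being Nr3c1 and Klf15 with r = 0.683 (permutation p = 0.0293, adjusted p = 0.22). The receptor gene itself had r = -0.188 with Fkbp5 (permutation p = 0.604, adjusted p = 0.897).

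**Figure D3:**
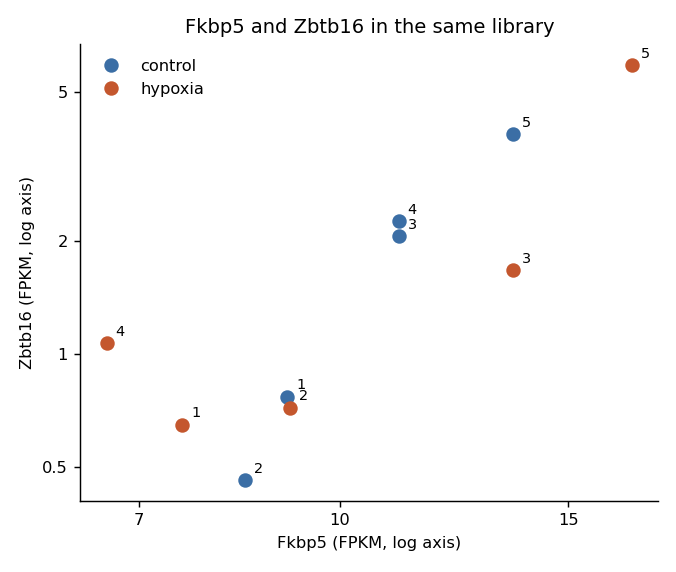
Zbtb16 against Fkbp5 in FPKM (both axes logarithmic), 1 point per library, numbered within its group. Hypoxia 5 (16.8 and 5.90 FPKM) and control 5 (13.6 and 3.86 FPKM) lie at the upper right, and control 2 and hypoxia 1 at the lower left.

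Ddit4 and Klf15 complete the targets. Ddit4 encodes REDD1, an inhibitor of the growth-promoting kinase complex mTORC1 that is induced by glucocorticoids and by low oxygen. The gene (ENSMUSG00000020108, chromosome 10, 59949669 to 59951834, minus strand) was at 11.9, 8.54, 6.85, 23.9 and 10.7 FPKM in controls 1 to 5. It was at 13.5, 12.5, 6.25, 10.1 and 24.6 FPKM in hypoxia 1 to 5. One library of each group, control 4 and hypoxia 5, was far above the rest, and the other values overlapped. The log2 fold change was 0.11 with a 95% interval from -0.71 to 0.93 (limma adjusted p = 0.865), and it was -0.14 without hypoxia 4 and 5. Its sign turned in 3 of 21 alternatives.

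Of 14 other genes that regulate mTORC1, 1 (7.14%, beside 11.5% of all tested genes that passed) was lower and none higher (limma). That gene was Ddit4l, the paralog of Ddit4, at 5.78 ± 0.733 FPKM for controls and 3.34 ± 0.656 FPKM for hypoxia (SD, n = 5; log2 fold change -0.72, adjusted p = 0.00814).

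Klf15 encodes a zinc finger factor that glucocorticoids induce and that promotes amino acid breakdown and gluconeogenesis. The gene (ENSMUSG00000030087, chromosome 6, 90462576 to 90475238, plus strand) was at 35.8, 20.2, 33.2, 33.5 and 29.4 FPKM in controls 1 to 5. It was at 33.7, 38.6, 52.7, 44.4 and 24.2 FPKM in hypoxia 1 to 5. Hypoxia 2, 3 and 4 were above all controls, and hypoxia 5 was below 4 of the 5 controls. The means were 30.4 ± 6.16 and 38.7 ± 10.8 FPKM (SD, n = 5), with a log2 fold change of 0.32 and a 95% interval from -0.15 to 0.79 (limma adjusted p = 0.328). Without hypoxia 4 and 5 the log2 fold change was 0.45 (limma adjusted p = 0.18). The exact two-sided permutation test then gave p = 0.0714 over 56 regroupings. None of 12 other Kruppel-like factors passed, the 2 most abundant being Klf9 at 56.0 ± 3.04 and 54.9 ± 10.9 FPKM and Klf2 at 12.6 ± 3.15 and 22.6 ± 15.4 FPKM, with 49.8 FPKM in hypoxia 5.

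**Figure D4:**
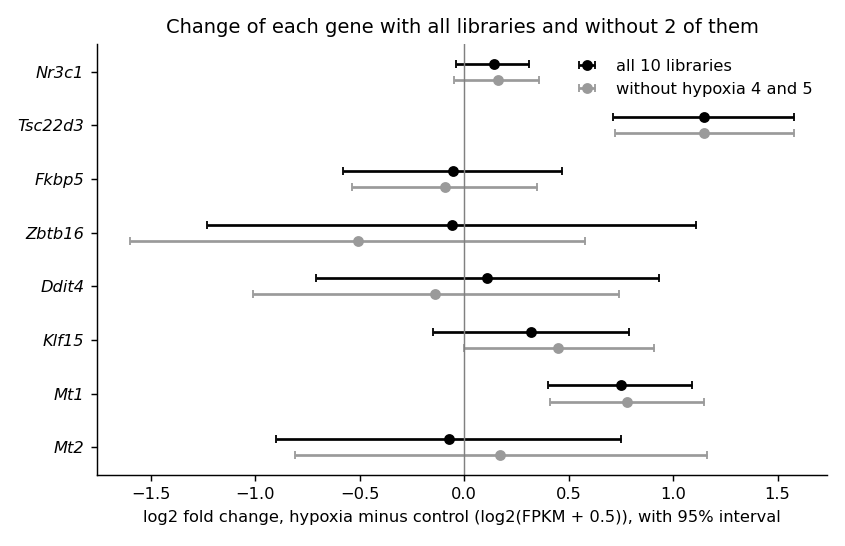
Log2 fold change (hypoxia minus control, log2(FPKM + 0.5)) with its 95% interval for the 8 genes, from all 10 libraries (black) and without hypoxia 4 and 5 (grey). The intervals of Tsc22d3 and Mt1 lie above 0 in both, with estimates of 1.15 and 1.15 and of 0.75 and 0.78, and the black intervals of the other 6 genes include 0.

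Response elements were searched in the promoter windows. RefSeq windows were found for 6 of the 8 genes, 8 windows in all. A full glucocorticoid response element, taken as an inverted repeat of TGTTCT with 3 bases between the arms and up to 2 mismatches, was in none of the 8, and in 1.56% of all windows. The half-site alone was in 1 of the 8, that of Tsc22d3 printed above, and in 16.1% of all windows. The E-box CACGTG, the site of the clock factors, was found once in the window of Fkbp5 and in 2 places in that of Klf15, and was in 6.02% of all windows. Ddit4 and Klf15 held 1 metal response element core each. These are matches of letters within 250 bases and say nothing of sites farther away.

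Of 33 other genes known as glucocorticoid targets, 29 were tested, and 5 of these were higher in hypoxia, none lower, and 24 did not pass (limma). The 5 are 17.2% of the 29, beside 11.5% of all tested genes that passed and 3.66% that passed as higher. Lower calls appeared on leaving out hypoxia 5, with 4 higher and 2 lower, and hypoxia 2, with 3 higher and 1 lower. The median log2 fold change of the 29 was -0.014, beside 0.012 for all tested genes. Of the 29, 13 had a positive log2 fold change, beside 7884 of all 15264 tested genes. Among the negative ones, named after their values were seen, Pdk4 was lowest at -0.81 (limma adjusted p = 0.111). Pck1, Cdkn1a and G6pc had log2 fold changes of -0.64, -0.61 and -0.52 (limma adjusted p = 0.13, 0.069 and 0.21). Per1, a repressor of the circadian clock with a well-known glucocorticoid response element, was at 4.45, 3.31, 3.73, 8.64 and 4.23 FPKM in controls 1 to 5 and at 12.3, 14.7, 12.0, 10 and 9.62 FPKM in hypoxia 1 to 5. The groups did not overlap, and control 4 was the highest control. Per1 rose by 1.25 on the log2 scale (SE 0.218, limma adjusted p = 0.00731), and 1.40 without hypoxia 4 and 5. Usp2, a deubiquitinase under clock and glucocorticoid control, went from 19.8 ± 1.36 to 27.5 ± 3.75 FPKM (SD, n = 5; log2 fold change 0.46, limma adjusted p = 0.0172). Per1 and Usp2 passed on leaving out any 1 library.

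The other 3 targets that were higher lost their calls in several of the fits that left out 1 library, while their log2 fold changes stayed positive, at 0.33 to 0.45 for Foxo3, 0.39 to 0.55 for Cdkn1c and 0.56 to 0.83 for Cebpd. Foxo3, a factor of catabolic gene expression, had a log2 fold change of 0.39 (limma adjusted p = 0.0271), and its call was lost without control 1, 2 or 3 or hypoxia 3 or 4. From hypoxia 1 to 3 it was 0.29 (limma adjusted p = 0.0601). Cdkn1c, a cell cycle inhibitor, had 0.46 (limma adjusted p = 0.0348), lost on leaving out any library except control 1 and hypoxia 5. Cebpd, a factor of the acute phase response, had 0.71 (limma adjusted p = 0.0405), lost on leaving out any library except control 4 and hypoxia 4. The number of these targets that passed was 2 without control 2, control 3 or hypoxia 3, and 3 without control 1, control 5, hypoxia 1 or hypoxia 4. Sgk1, the kinase that raises sodium transport, was at 24.6 ± 13.3 and 30.2 ± 4.75 FPKM (log2 fold change 0.42, limma adjusted p = 0.36), with 46.2 FPKM in control 4 and 12.4 to 27.2 FPKM in the other controls. Control 4 was thus the highest control for Tsc22d3, Ddit4, Per1, Cebpd and Sgk1, a pattern chosen after the values were seen.

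**Figure D5:**
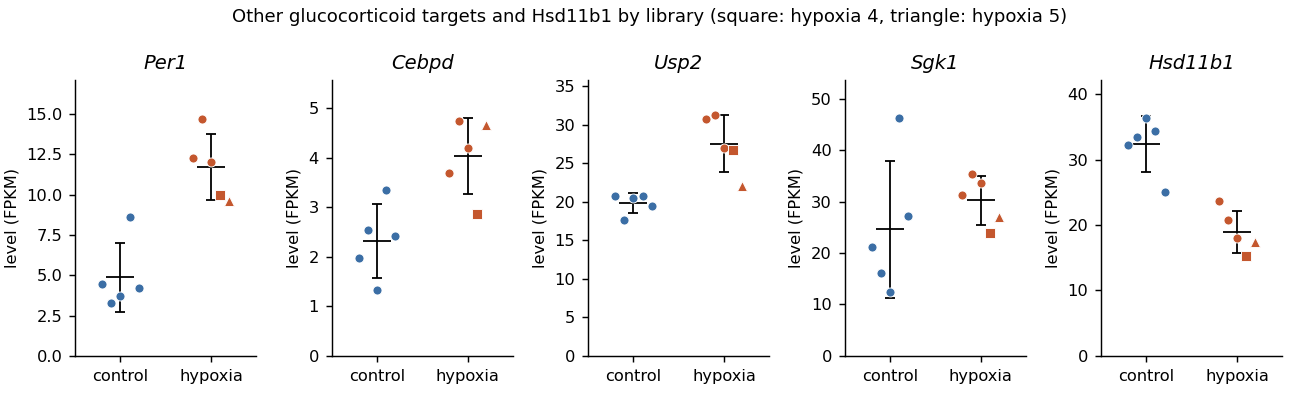
Level in FPKM (linear axis from 0) of Per1, Cebpd, Usp2, Sgk1 and Hsd11b1 in the 5 control and 5 hypoxia libraries (square, hypoxia 4; triangle, hypoxia 5), with mean and SD. The groups do not overlap for Per1, Usp2 and Hsd11b1, and control 4 reaches 46.2 FPKM for Sgk1.

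Per1 is also a clock gene, and clock genes differed between the groups. The clock list held 17 tested genes, of which 8 passed as higher and 2 as lower (limma), with a median log2 fold change of 0.49. The share that passed was 58.8%, beside 11.5% of all tested genes. Without hypoxia 4 and 5 it was 8 higher and 1 lower of 16, beside 12.3% of all tested genes that passed. Per2 was at 3.48 ± 0.446 and 6.93 ± 0.534 FPKM (SD, n = 5; log2 fold change 0.91, limma adjusted p = 0.000526). Per3 had a log2 fold change of 1.06 (limma adjusted p = 0.00247). Ciart, a repressor of the clock activators, had one of 1.42 (limma adjusted p = 0.00526). The 2 lower genes, named after their values were seen, were the clock activators Npas2 (-1.35, limma adjusted p = 0.012) and Clock (-0.32, limma adjusted p = 0.0455), and the call of Clock was lost without hypoxia 4 and 5. The hour at which tissue was taken is not given in the sources used here, and the part of these clock differences in the levels of Tsc22d3 and Per1 was not tested.

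The tested genes whose profile over the 10 libraries was most like that of Tsc22d3 were Cebpd, Per1 and Cxcl12, with root mean square differences of 0.29, 0.30 and 0.30 between centred log2 values. Cxcl12, a chemokine, was at 23.7 ± 5.36 and 41.7 ± 10.9 FPKM (SD, n = 5; log2 fold change 0.79, limma adjusted p = 0.0344), and its call was kept only without control 4, hypoxia 4 or hypoxia 5. For Mt1 they were Baat, Bhmt and Tprkb, at 0.17, 0.18 and 0.18. Baat, which conjugates bile acids, was at 0.684 ± 0.116 and 1.39 ± 0.354 FPKM (limma adjusted p = 0.0216), and lost its call without control 1, hypoxia 3 or hypoxia 4. Bhmt, which remethylates homocysteine, was at 0.430 ± 0.148 and 0.978 ± 0.264 FPKM (limma adjusted p = 0.04). Tprkb, a partner of the p53-related kinase, was at 18.9 ± 2.22 and 28.1 ± 6.05 FPKM (limma adjusted p = 0.0473). Bhmt and Tprkb each lost the call on leaving out any library except hypoxia 5. Profiles were compared over libraries of both groups, so a shared difference between the groups makes them alike. Baat and Bhmt lay near the 0.5 FPKM added before the logarithm, which bears on their likeness to Mt1. Their ratios of hypoxia to control were 2.04 and 2.28, against 1.69 for Mt1. Their log2 fold changes were 0.66 and 0.67, against 0.75 for Mt1.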

How the data were processed

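RNA sequencing of kidney from 5 control and 5 hypoxia libraries was analysed, grouped by the treatment label. The authors deposited 1 table of FPKM per gene, made from reads aligned with HISAT2 2.0.5. The submitters' processing notes give that aligner and, as build, the human hg38. Identifiers were mouse ones: 55141 were present in a GRCm38 annotation, 99.42% of them at the same coordinates. The deposited table also gives gene length, an other unit that was used to recover reads. FPKM times length gave whole reads (tolerance 0.05), and no count model other than limma voom was run on them. The counting tool is not given in the sources used here.

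Values were used as deposited. Genes averaging 0.5 FPKM or more entered limma 3.58.1 (R 4.3.3) as log2(FPKM + 0.5) values (eBayes with trend and robust, two-sided, group as the only term), which was tested on simulated data. Fold changes on this scale understate those of low genes. Exact tests enumerated all regroupings. Numbers of reads carry counting error only.

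The 8 genes, the 9 gene lists and the 14 marker lists were chosen with earlier results of these data known. Named from each list were the genes past the threshold with the lowest p, at most 4, or else the 2 of highest level, and always Per1, Sgk1, Nr3c2, Hsd11b1, Hsd11b2 and 5 marker genes. For Tsc22d3 and Mt1 the 3 genes of most similar profile were added. Alternatives were the pseudocount (0.1 and 1), the filter (none and 2 FPKM), 3 scalings, eBayes without trend and robust, a replicate block, limma voom, and leaving out libraries. Promoter windows are those of RefSeq on GRCm38.p6.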

Additional observations from a re-analysis of the deposited data

Results flagged for a closer look

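Zbtb16 in hypoxia 5 was at 5.9 FPKM, far from the other 4 hypoxia libraries, which lay between 0.648 and 1.67 FPKM. The gap to the nearest of them was 0.806 of the range of the group, above the critical value of 0.71 for 5 samples. Chance marks about 1 in 20 groups in this way, and 1 of the 16 groups examined (8 genes in 2 groups) was marked. Hypoxia 5 is the library with B cell markers at 489.1 FPKM and red cell markers at 6560 FPKM, and their part in this value was not tested.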

How the results depend on the processing

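In the count that follows, a turn of sign was not marked for genes without a call. Such turns occurred for Fkbp5, Zbtb16, Ddit4 and Mt2, in 5, 6, 3 and 5 alternatives. Of 166 values of the log2 fold changes of the 8 genes under alternatives, 165 stayed on the same side of the threshold as with all libraries and settings as described, or had no call to lose. The exception was Mt1 with the replicate block (adjusted p = 0.0592), where 1 of the 8 genes passed in place of 2, with 2 of the 29 other targets (5 without it) and 999 of all genes (1748 without it). The replicate numbers do not pair the libraries: deviations of libraries with the same number correlated at -0.077 to 0.086, and 2 of the 5 hypoxia libraries correlated best with their own number. Without the filter on low values 2 of the other targets and 966 genes passed. Leaving out each library in turn gave 2 of the 8 genes every time, 2 to 6 of the other targets (up to 2 of them lower), 7 to 15 of the 28 chaperone, coregulator and steroid enzyme genes, and 824 to 2724 of all genes. The cause of these changes was not tested. Depth limits Mt2 most, with 1 to 25 reads per library, and Zbtb16 next, with 40 to 568.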

Other observations

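Relatives of Fkbp5 and Tsc22d3 were measured as a further group. The median log2 fold change of 16 tested members of the FKBP and TSC22 families beside them was 0.0044. Of these 16, 3 (18.8%, beside 11.5% of all tested genes that passed) were lower in hypoxia and none higher (limma). Beside Fkbp4, they were Fkbp2, an immunophilin of the endoplasmic reticulum, at 33.6 ± 2.20 FPKM for controls and 19.1 ± 5.57 FPKM for hypoxia (SD, n = 5; log2 fold change -0.84, limma adjusted p = 0.012), and Fkbpl, a further partner of HSP90, at 5.74 ± 0.536 and 4.19 ± 0.766 FPKM (log2 fold change -0.42, limma adjusted p = 0.0472). Fkbp2 passed on leaving out any 1 library, and the call of Fkbpl was lost on leaving out any library except hypoxia 4 and hypoxia 5. Without hypoxia 4 and 5, 4 of the 16 were lower and 2 higher, beside 12.3% of all tested genes that passed.

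The 5 brown fat markers summed to 13.9 to 71.0 FPKM in controls and 7.44 to 19.5 FPKM in hypoxia. Of the 5, 3 were lower (limma), beside 11.5% of all tested genes that passed. Among them Ucp1 was at 9.31, 4.28, 0, 14.4 and 8.53 FPKM in controls 1 to 5. Its call (limma adjusted p = 0.0244) was lost without hypoxia 4 and 5 (limma adjusted p = 0.0599). The part of brown fat in the results above was not tested. The 5 podocyte markers summed to 77.9 to 97.0 FPKM in controls and 112.7 to 146.6 FPKM in hypoxia 1 to 4, with 70.7 FPKM in hypoxia 5.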
